A study of Mus musculus with 4 samples.

Results

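The dystrophin-glycoprotein complex was examined in mouse primary myoblasts through 8 of its genes, Dmd, Utrn, Dag1, Sgca, Sgcb, Sgcd, Dtna and Sntb1. They were chosen by name, with earlier results of these data known, and each matched 1 row of a deposited expression table of 24445 genes. The table came from RNA sequencing of 4 libraries, 2 from WT mice and 2 from Tet2 KO mice, all of the C57BL/6 strain and, per the study's methods, from adult males unless stated otherwise. Tet2 KO mice carried a constitutive deletion of exon 3 of Tet2, so the difference between the groups was not limited to muscle cells of the animal. In both groups satellite cells were sorted from hindlimb muscle and grown on collagen until they had become myoblasts, and no further agent separated the groups. Expression was given as 1 FPKM value per gene and group (fragments per kilobase of transcript, scaled to all mapped fragments, so that levels can be compared between genes). Where a pair of values is given without group names, Tet2 KO comes first. Whether the libraries of a group came from separate animals is not stated. No value of a single library was given, so no difference below has a replicate check, and no SD, n or p-value stands beside it.

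Dystrophin is a long rod-shaped protein that ties the actin cytoskeleton of the muscle fibre to a group of membrane proteins, which in turn bind laminin in the matrix outside. Dystroglycan spans that link, the sarcoglycans surround it in the membrane, and dystrobrevins and syntrophins are bound on the cytoplasmic side, where they carry signalling proteins. Utrophin, the closest relative of dystrophin, takes its place in many other cell types and at the neuromuscular junction. Loss of dystrophin causes Duchenne muscular dystrophy, and loss of single sarcoglycans causes limb-girdle muscular dystrophies.

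The starts of 4 transcripts are shown to place the values that follow, since the FPKM of a gene sums transcripts from all of its starts. The study concerned methylation of CpG sites beside E boxes. Its main site was an enhancer far upstream of the Myog start, a different kind of element from the windows used here. Windows of 250 bases before annotated starts were taken from RefSeq (GRCm38.p6) for 6 members with 8 starts, and each window matched mm9 exactly once. No window of Sntb1 or Dtna was used here. The first Dmd window, at chrX:80193959-80194208 on the plus strand, lies before the full-length dystrophin transcript of 14910 bases. The second, at chrX:82293384-82293633 on the plus strand, lies far downstream before the transcripts of at most 4438 bases that encode the short dystrophin Dp71. The Sgca window is chr11:94837642-94837891 and the Sgcb window chr5:74038977-74039226, both on the minus strand, and they stand for a sarcoglycan of striated muscle and for one made in many tissues. Capitals mark the E box letters CANNTG. As a pattern these read the same on both strands, although the middle letters of a single box can differ between strands.
Dmd, full-length start: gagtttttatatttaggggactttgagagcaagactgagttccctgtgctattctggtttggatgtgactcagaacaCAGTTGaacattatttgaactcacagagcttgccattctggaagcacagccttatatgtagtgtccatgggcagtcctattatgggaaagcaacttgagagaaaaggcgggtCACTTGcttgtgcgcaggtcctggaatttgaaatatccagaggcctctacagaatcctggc
Dmd, Dp71 start: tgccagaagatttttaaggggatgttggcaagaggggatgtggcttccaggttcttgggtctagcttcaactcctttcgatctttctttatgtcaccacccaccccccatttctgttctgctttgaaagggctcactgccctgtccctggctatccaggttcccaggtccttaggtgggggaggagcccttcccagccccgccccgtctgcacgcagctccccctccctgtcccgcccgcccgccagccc
Sgca: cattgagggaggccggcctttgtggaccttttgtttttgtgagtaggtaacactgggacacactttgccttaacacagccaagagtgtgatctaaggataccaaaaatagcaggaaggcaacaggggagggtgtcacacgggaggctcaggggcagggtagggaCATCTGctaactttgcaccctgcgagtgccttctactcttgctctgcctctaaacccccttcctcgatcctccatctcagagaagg
Sgcb: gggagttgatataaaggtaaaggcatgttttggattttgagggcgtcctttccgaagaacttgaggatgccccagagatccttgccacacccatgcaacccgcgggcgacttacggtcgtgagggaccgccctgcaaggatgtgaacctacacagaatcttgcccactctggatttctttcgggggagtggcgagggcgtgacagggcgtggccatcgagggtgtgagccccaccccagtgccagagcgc

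The full-length Dmd window held 2 CpG sites and 2 E boxes, CAGTTG and CACTTG, whereas the Dp71 window held 7 CpG sites and no E box. The Sgca window held 4 CpG sites and 1 E box, and the Sgcb window held 14 CpG sites and none. Among the other members, the Sgcd window had 9 CpG sites and 2 E boxes. It precedes the RefSeq start at 47192827, which is 197 bases downstream of an annotated transcript start, so it lies largely within that transcript's span. Another annotated protein-coding Sgcd transcript begins upstream at 47392467. The overlapping windows of the Dag1 starts had 36 and 21 CpG sites and shared 1 E box. The Utrn window had 2 CpG sites and 7 E boxes, but it precedes the RefSeq start at 12581533, and another annotated protein-coding transcript begins upstream of it at 12589163. The median of all 32851 windows was 6 CpG sites. CANNTG occurred in 66.2% of them and CAGCTG, the E box form preferred by MyoD, in 13%. None of the 8 windows of the members held CAGCTG. These letters describe the windows only, and no methylation value was analysed here.

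Tet2 had 5.79 FPKM in Tet2 KO against 6.64 FPKM in WT, and this value covers all exons, so it does not show exon 3. The myoblast markers Myod1, Myf5, Pax7, Des, Cdh15 and Itga7 were present at a summed level of 1028 FPKM in Tet2 KO against 1153 FPKM in WT, and none of the 6 differed by 1.5-fold. Ly6a, which encodes the Sca1 antigen used to gate cells out, had 288 FPKM in Tet2 KO against 278 FPKM in WT after culture. Markers of other cells were at most minor in level for endothelium, where the 6 genes summed to 3.95 and 4.91 FPKM and Pecam1 alone had a mean of at least 1 FPKM, and for Schwann cells, where 5 genes summed to 13.3 and 11.0 FPKM, mostly Ngfr at 10.8 and 8.82 FPKM. All 10 leukocyte markers were at least 1.5-fold higher in Tet2 KO, with sums of 372 FPKM in Tet2 KO against 95.2 FPKM in WT and with none listed at 0. The sort had excluded cells bearing the products of Ptprc and Itgam, which had 5.67 and 10.1 FPKM in Tet2 KO after culture and 1.36 and 2.09 FPKM in WT. In bulk RNA, fewer cells of a type and less RNA per cell cannot be told apart.

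The complex was lower in Tet2 KO for some subunits and nearly equal for others. The summed level of the 8 genes was 103 FPKM in Tet2 KO against 140 FPKM in WT, which is 73.6% of the WT sum, or 81.5% when Sntb1 is left out. A difference was called when it reached 1.5-fold on the log2(FPKM + 1) scale among genes with a mean of at least 1 FPKM, a rule of size and not a test. All 8 members had that mean over the 2 groups. Sntb1, Dmd and Dtna were called lower, which is 3 of 8, and none was called higher. Over the 11692 genes of that level, 2.89% were called lower and 3.72% were called higher. The median log2 ratio of the members, Tet2 KO over WT, was -0.44, beside a median of -0.0044 over all genes of that level. Sgcb was the 1 member with the higher value in Tet2 KO.

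**Figure D1:**
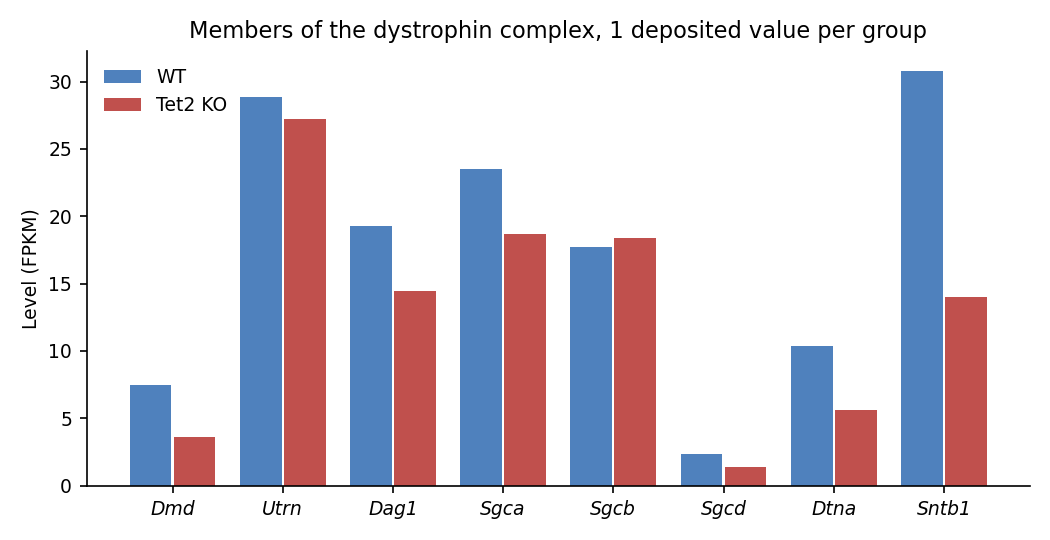
Level of each member in FPKM (vertical axis) in WT (blue) and Tet2 KO (red), with 1 deposited value per group and no error available. The red bar stands at 45.5% of the blue one for Sntb1, 48.5% for Dmd and 54.0% for Dtna, and the bars of Utrn and Sgcb are nearly level.

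Dmd and Utrn, the paralogues at the cytoskeletal end of the complex, stood apart. Dmd, on the plus strand of chromosome X from 80194209 to 82450389 in mm9, was at 3.62 FPKM in Tet2 KO against 7.45 FPKM in WT. The Tet2 KO level was 48.5% of WT, a log2 ratio of -0.87 on the log2(FPKM + 1) scale and -1.04 without a pseudocount. Of all genes of that level, 1.57% had a ratio at or below that of Dmd. GENCODE vM1 lists 16 Dmd transcripts, 5 of them protein-coding and between 1858 and 14910 bases long, and the longest has 79 exons. The gene-level value does not separate full-length dystrophin from Dp71, a short form made in many cell types. Utrn, on the minus strand of chromosome 10 from 12101986 to 12581533, was at 27.2 FPKM in Tet2 KO against 28.9 FPKM in WT, which is 94.2% of WT. Its log2 ratio of -0.08 lay well inside the bulk of genes, with 29.8% of them at or below it. Utrn was therefore 3.88 times the level of Dmd in WT and 7.53 times in Tet2 KO. Drp2, the third gene of this family, which was not among the members, had 19.3 and 21.2 FPKM, a log2 ratio of -0.13.

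Dag1 encodes dystroglycan, which is cut into an outer part that binds laminin and a membrane part that binds dystrophin or utrophin. It lies on the minus strand of chromosome 9 from 108107192 to 108166289. Dag1 had 14.4 FPKM in Tet2 KO against 19.3 FPKM in WT, 74.8% of WT. The log2 ratio of -0.39 did not reach 1.5-fold, and 5.11% of all genes of that level were at or below it.

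The sarcoglycans differed among themselves. Sgca, the alpha subunit of striated muscle, on the minus strand of chromosome 11 from 94824091 to 94837641, was at 18.7 FPKM in Tet2 KO against 23.5 FPKM in WT, a log2 ratio of -0.31. Sgcb, the beta subunit, on the minus strand of chromosome 5 from 74023988 to 74038970, was at 18.4 FPKM in Tet2 KO against 17.8 FPKM in WT, a log2 ratio of 0.05. Its Tet2 KO level was 104% of WT, and 65.0% of all genes of that level had a ratio at or below that of Sgcb. Sgcd, the delta subunit, on the minus strand of chromosome 11 from 46792285 to 47192804, was the lowest of the members in both groups. It had 1.37 FPKM in Tet2 KO against 2.33 FPKM in WT, 58.8% of WT. Its log2 ratio was -0.49 with the pseudocount, just short of the 1.5-fold limit, and -0.77 without it, past the limit, so its call depended on the pseudocount. Sgce, the epsilon subunit, which was not among the members and is made in many tissues, had 7.54 and 8.20 FPKM, a log2 ratio of -0.11. Sgcb stood at 7.61 times the level of Sgcd in WT and 13.4 times in Tet2 KO.

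Both cytoplasmic adaptors among the members were called lower. Dtna, which encodes alpha-dystrobrevin, on the plus strand of chromosome 18 from 23468521 to 23818220, was at 5.62 FPKM in Tet2 KO against 10.4 FPKM in WT. This was 54.0% of WT, a log2 ratio of -0.78, with 1.93% of all genes of that level at or below it. GENCODE vM1 lists 9 Dtna transcripts of 1464 to 6513 bases. The earliest of them starts at 23573916, downstream of the start in the deposited table, so the transcripts behind the gene-level value are not known. Its paralogue Dtnb had 8.88 and 8.64 FPKM, a log2 ratio of 0.04, so that Dtnb was 0.830 times the level of Dtna in WT and 1.58 times in Tet2 KO. Sntb1, which encodes beta-1-syntrophin, a PDZ protein that docks channels and enzymes on the complex, lies on the minus strand of chromosome 15 from 55470709 to 55738504. Beta-1-syntrophin mRNA had 14.0 FPKM in Tet2 KO against 30.8 FPKM in WT, 45.5% of WT. The log2 ratio of -1.08 was the lowest of the 8 members, and 1.05% of all genes of that level were at or below it. Sntb1 was the most abundant member in WT and ranked 5 of 8 in Tet2 KO. Sntb2 had 11.3 FPKM in Tet2 KO against 10.04 FPKM in WT, a log2 ratio of 0.15, and was not called. Sntb1 was thus 3.06 times the level of Sntb2 in WT and 1.24 times in Tet2 KO.

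**Figure D2:**
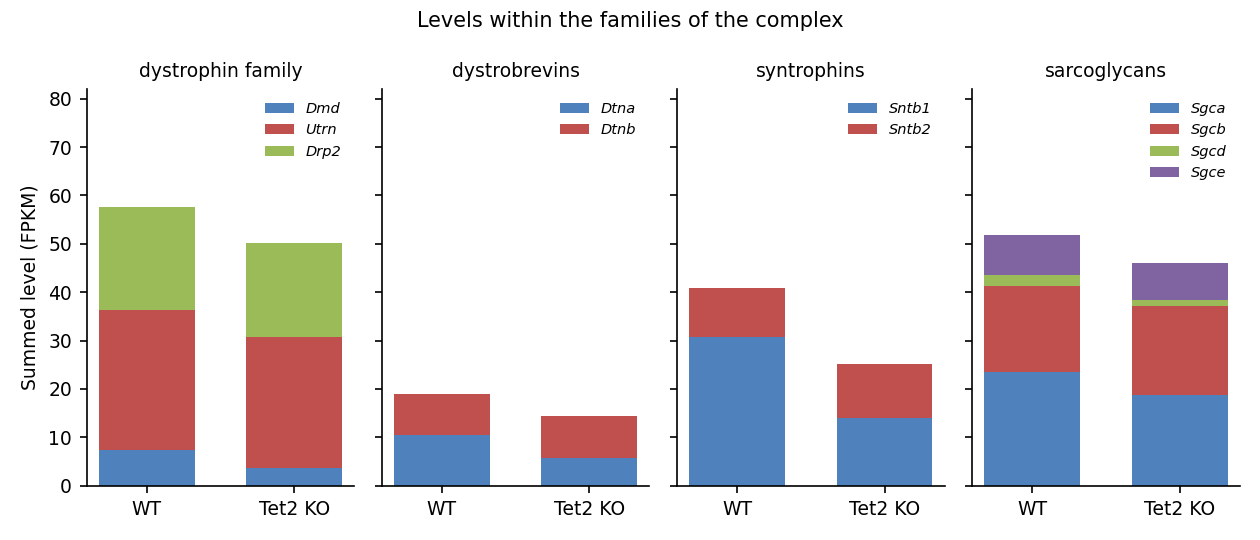
Levels in FPKM of the genes given here, stacked within the dystrophin family, dystrobrevins, syntrophins and sarcoglycans, for WT and Tet2 KO, with 1 deposited value per gene and group. The Sntb1 part shrinks from 75.4% of the sum of Sntb1 and Sntb2 in WT to 55.4% in Tet2 KO, the Dtna part of the dystrobrevins from 54.6% to 38.8%, and the Dmd part of its family from 12.9% to 7.21%.

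Among the genes given here, the makeup of each family differed between the groups. The dystrophin family summed to 50.2 FPKM in Tet2 KO against 57.5 FPKM in WT, and Utrn and Drp2 made up most of it in both. Sntb1 and Sntb2 together had 25.2 and 40.8 FPKM, which is 61.9% of WT. The dystrobrevins summed to 14.5 and 19.0 FPKM, and Sgca, Sgcb, Sgcd and Sgce together had 46.0 and 51.8 FPKM, which is 88.9% of WT. Of that sarcoglycan sum, Sgcb made up 34.3% in WT and 40.0% in Tet2 KO, Sgca 45.4% and 40.7%, and Sgcd 4.51% and 2.98%.

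The order of the members differed between the groups mainly in the place of Sntb1. In WT it ran from Sntb1 and Utrn through Sgca, Dag1, Sgcb, Dtna and Dmd to Sgcd, a range of 13.2-fold. In Tet2 KO it ran from Utrn through Sgca, Sgcb, Dag1, Sntb1, Dtna and Dmd to Sgcd, a range of 19.8-fold. Without values of single libraries it cannot be said which neighbours in this order differ beyond their spread. Sgca and Sgcb in Tet2 KO, at 18.7 and 18.4 FPKM, were the closest neighbours.

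**Figure D3:**
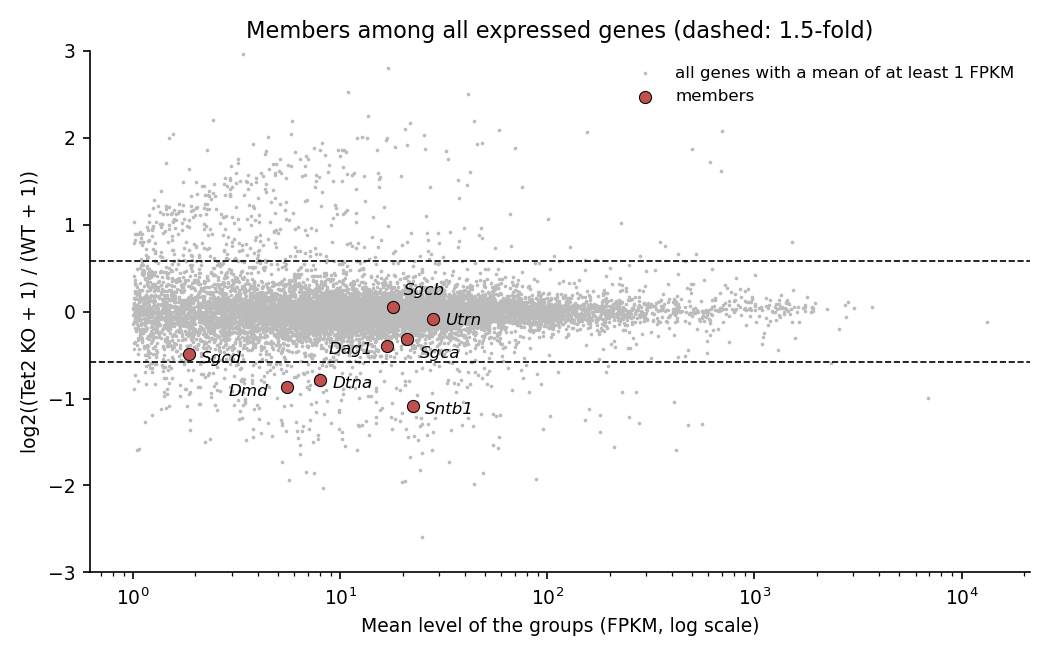
The log2 ratio of Tet2 KO over WT on the FPKM + 1 scale (vertical axis) against the mean level of the groups in FPKM on a log axis, for all genes with a mean of at least 1 FPKM (grey, 11 genes beyond the axis not shown) and the 8 members (red). Sntb1, Dmd and Dtna lie below the dashed 1.5-fold line, Sgcd, Dag1 and Sgca between that line and 0, and Utrn and Sgcb near 0.

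The genes nearest to each member in the pair of group values were found by the distance between log2(FPKM + 1) values over the 2 groups. Only genes with a mean of at least 1 FPKM were searched. All genes of the lists used here, the other members included, were left out of the search and of the neighbour counts. For Sntb1 it was Sln, which encodes sarcolipin, a regulator of the calcium pump of muscle, with 13.6 FPKM in Tet2 KO against 32.9 FPKM in WT at a distance of 0.10. For Dmd it was Gja5, a connexin gene, with 3.77 and 6.78 FPKM at a distance of 0.13. Utrn and Sgcb lay in a crowd, with 154 and 196 genes within a distance of 0.1, whereas Dmd and Sntb1 had 0 such neighbours and Dtna had 3. The nearest gene to Dtna was H2-T10, to Dag1 Ndufaf1, to Sgca Slain2, to Sgcd Xlr3b, to Utrn Parg and to Sgcb Cdk13. A likeness over 2 values is a description and carries no test.

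The rest of the complex was examined through 10 further subunits, of which 6 had a mean of at least 1 FPKM. Of these, 1 was called lower and 0 higher, and the median log2 ratio was -0.12. Over all genes of that level, 2.89% were called lower and 3.72% higher, so counts of 0 or 1 in short lists say little about a list. Cav3, which encodes caveolin-3, a muscle protein of membrane caveolae that binds dystroglycan, was called lower at 31.0 FPKM in Tet2 KO against 86.3 FPKM in WT, a log2 ratio of -1.45. Sspn, which encodes the tetraspanning protein sarcospan, had 8.62 and 11.9 FPKM and was not called. Nos1, whose neuronal nitric oxide synthase binds syntrophin in mature fibres, was at 0.0188 and 0.0296 FPKM, and Sntg1, Sntg2 and Sgcz were also far below 1 FPKM in both groups.

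Enzymes that add sugars to dystroglycan, on which its binding to laminin depends, were measured by 18 genes. Of these, 17 had a mean of at least 1 FPKM, with a median log2 ratio of -0.08 and a range from -0.64 to 0.16. The most abundant were Dpm3, with 64.2 FPKM in Tet2 KO against 57.4 FPKM in WT, and Rxylt1 (listed as Tmem5), with 34.6 and 34.2 FPKM. Dpm1, a subunit of dolichol-phosphate-mannose synthase, was the 1 gene called lower, with 1.77 and 3.32 FPKM, a log2 ratio of -0.64. In GENCODE vM1 it shares 37.0% of its exon bases with Adnp, so its value is uncertain. Pomgnt2, a glycosyltransferase of the same pathway, had 2.197 and 3.238 FPKM, a log2 ratio of -0.41 that was not called. None was called higher, and the shares over all genes of that level were 2.89% lower and 3.72% higher.

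The ligands in the matrix were compared in the same way. Of 12 genes, 9 had a mean of at least 1 FPKM and their median log2 ratio was -0.05. Lamb1, a laminin beta chain and the most abundant, had 84.0 FPKM in Tet2 KO against 77.5 FPKM in WT. Bgn, which encodes biglycan, a small proteoglycan that binds dystroglycan and sarcoglycans, was called higher, with 52.7 FPKM in Tet2 KO against 26.6 FPKM in WT, a log2 ratio of 0.96. The muscle laminin chain Lama2 had 12.4 and 12.9 FPKM. No ligand was called lower, beside 2.89% of all genes of that level called lower and 3.72% called higher.

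Partners in the cytoskeleton and the integrin that binds laminin in parallel with dystroglycan were also examined. Of 12 cytoskeletal partners, 8 had a mean of at least 1 FPKM and 0 were called in either direction, with a median log2 ratio of -0.06 and a range from -0.30 (Dst, 49.4 and 61.2 FPKM) to 0.03 (Actb). The actin genes Actb and Actg1 were the most abundant, at 2271 and 744 FPKM in Tet2 KO and 2219 and 769 FPKM in WT. Among 8 genes of the alpha-7 beta-1 integrin and its partners, the median was -0.07. Itgb1 had 215 FPKM in Tet2 KO against 227 FPKM in WT, and Itga7 had 190 and 199 FPKM. The 1 gene called lower was Itgb1bp2, which encodes melusin, a muscle protein that binds the integrin tail, with 11.9 and 33.8 FPKM, a log2 ratio of -1.43. For both lists, the shares over all genes of that level were 2.89% called lower and 3.72% called higher.

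**Figure D4:**
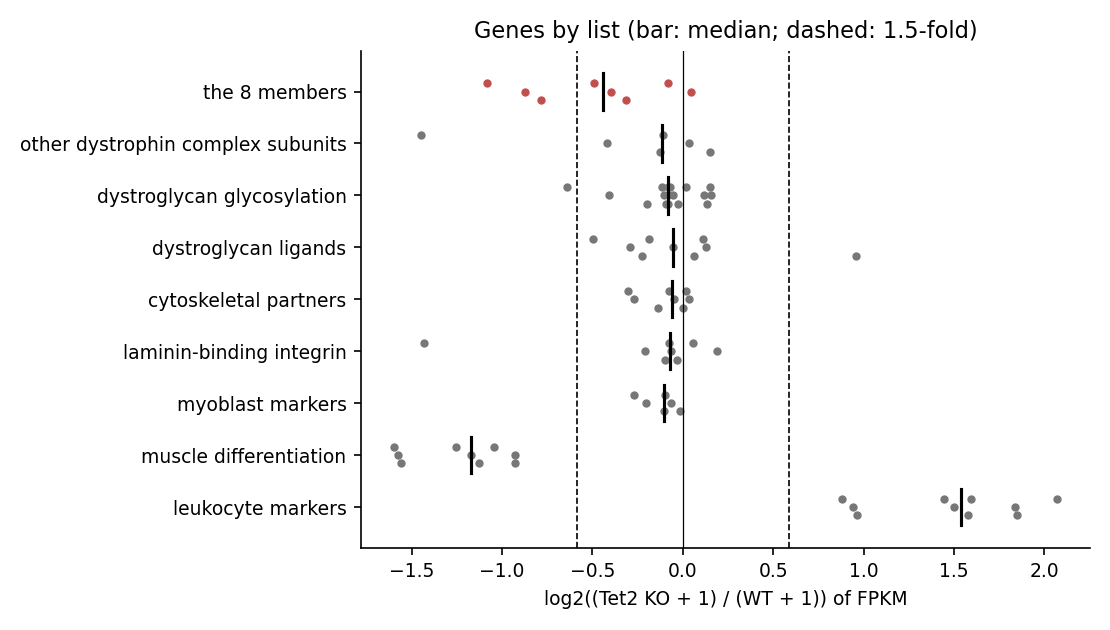
Log2 ratio of Tet2 KO over WT on the FPKM + 1 scale (horizontal axis) for the genes of each list with a mean of at least 1 FPKM (points), with the list median (bar) and the 1.5-fold limits (dashed). The 8 members spread from -1.08 to 0.05, the 9 muscle differentiation genes lie from -1.60 to -0.93, and the 10 leukocyte markers from 0.88 to 2.07.

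The members spread between genes of nearly equal value and the genes of muscle differentiation. All 9 differentiation genes were called lower, with a median log2 ratio of -1.17, from Acta1 at -1.60 to Ckm at -0.93. The list holds genes such as Myog that the study itself examined, so its direction is not independent evidence. The myoblast markers had a median of -0.10, from Des at -0.27 to Pax7 at -0.02. Sntb1 lay within the range of the differentiation genes, Dmd and Dtna lay just above it, and Utrn and Sgcb lay among or above the myoblast markers. The leukocyte markers, from Cd14 at 0.88 to Lyz2 at 2.07, had the opposite direction, and the part of either marker list in the values of the members was not tested.

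Of 7 fibroblast markers, 4 had a mean of at least 1 FPKM, all 4 with a log2 ratio above 0 and a median of 0.41. Dcn was called higher, with 7.04 FPKM in Tet2 KO against 3.15 FPKM in WT, while Ly6a had the lowest log2 ratio at 0.05. Ly6a made up most of the list's sum of 301 FPKM in Tet2 KO against 285 FPKM in WT. Of 6 smooth muscle and pericyte genes, 3 had that mean and Acta2, an actin that myoblasts also make, was called lower, at 146 and 236 FPKM. Pdgfrb was the highest of them at 0.27. Their part in the values of the sarcoglycan and dystroglycan genes, which such cells also make, was not tested.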

How the data were processed

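RNA of 4 libraries, 2 of WT and 2 of Tet2 KO myoblasts, was sequenced after TruSeq RNA library preparation, a kit that does not mark strand. Per the study's methods and the submitters' processing notes, reads were filtered for adapters and quality and mapped as pairs to mm9 with TopHat2 2.0.13, and the authors deposited FPKM values from Cuffdiff 2.2.1. The annotation was not given in the sources used here, nor how libraries of a group were combined. The deposited table also holds the authors' own fold changes, test statistics, p-values and q-values, which were not used.

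From the 2 FPKM columns, log2((Tet2 KO + 1) / (WT + 1)) was computed, a scale that understates the change of low genes. Genes with a mean of at least 1 FPKM were called at 1.5-fold or more. Reads per gene could not be recovered from the FPKM values, so depth is unknown and no interval was given. The computation of ratios and calls was tested on simulated data with known folds, which bears on the arithmetic and not on replicate error. Starts are given with 1 added, since the table counts them from 0. Transcripts and exon overlaps came from GENCODE vM1, of the same build, and no exon of a member overlapped another gene there. By a rule set with the design, the genes named were all members, Tet2, the called and the 2 most abundant genes of each pathway list, the extremes of the marker lists and the nearest gene of each member. Other paralogues, list members with a known role, Ptprc and Itgam were added after their values were seen. Some genes of the lists are not reported here, and the list counts and family sums leave them out. The members and lists were chosen with earlier results of these data known. Python 3.11.15, numpy 2.4.6, pandas 2.3.3 and matplotlib 3.10.9 were used.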

Additional observations from a re-analysis of the deposited data

How the results depend on the processing

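No paired analysis was possible because the table holds 1 value per group and none per library, and omitting single libraries could not be run either. The count of 3 members called lower became 1 at 2-fold (Sntb1), against 1.21% of all genes called lower there, and 5 at a lower limit of 0.32 on the log2 scale (with Dag1 and Sgcd), against 7.03%. It was 4, with Sgcd, at a pseudocount of 0.1 (3.83% of all genes) or none (4.01%). It was 3 without a filter (1.46%), at a mean of at least 5 FPKM (2.33%), in TPM (3.25%) and after median centring (2.86%). Under each of the 8 settings 0 members were called higher, against between 2.05% and 7.04% of all genes. With 8 members, a count of 0 is close to such shares. The median of the members moved from -0.44 to -0.57 with a pseudocount of 0.1 and to -0.59 without one, which passes the 1.5-fold limit. It lies midway between Dag1 and Sgcd, and without a pseudocount Dag1 was at -0.42 and Sgcd at -0.77. Leaving out each member in turn gave medians from -0.49 to -0.39. Of the members, no log2 ratio changed sign under another pseudocount, TPM or median centring. The members have no error from replicates, which limits every statement above.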
